A study of Mus musculus with 12 samples.

Results

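N6-methyladenosine (m6A) is the most common internal modification of messenger RNA, and 10 genes that write, read or erase it are described here in mouse brain perivascular macrophages. The members were picked by symbol: the readers Ythdf1, Ythdf2, Ythdf3, Ythdc1 and Ythdc2, the writer subunits Mettl3, Mettl14 and Wtap, and the erasers Alkbh5 and Fto. All 10 were found among the 17358 genes of the deposited table, and all 10 were among the 9550 genes that passed the filter on low counts. The group was chosen because Ythdf2 was higher in aged libraries, so the values of Ythdf2 in that comparison are given as a description, with no test. The other 9 members were taken along for their function.

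The study asked how gene expression of perivascular macrophages, which reside between the walls of brain vessels and the surrounding tissue, differs between aged and young adult mice of the C57BL background. It comprised 5 aged libraries (18 months) and 7 young adult libraries (3 months), made from brain by SMART-seq2, which amplifies whole cDNA from very little input. The libraries are described as biological replicates. The sources used here name no treatment, transgene, sex, sort marker or number of animals behind a library. Library totals ranged from 23214836 to 30628787 estimated counts. The summed level of 8 perivascular macrophage markers lay between 9720 and 15700 CPM (counts scaled to library size with TMM factors, called normalised CPM here) in aged and between 10600 and 18700 in young libraries, and every one of the 8 was detected and tested. Markers of microglia were present too, with a summed level of 7 markers between 2500 and 3930 normalised CPM in aged and between 2430 and 4550 in young libraries. Aged libraries 1, 3 and 4 stood apart on the first principal component (15.5% of the variance), at −76.1, −95.1 and −105 against 10.8 to 47.6 for the other 9 libraries. Log2 fold changes of members and named pathway genes are also given without these 3 libraries where that moved them by over 1.5 times or turned their sign.

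In cells, m6A is placed on nascent transcripts by a complex in which METTL3 is the catalytic subunit, METTL14 binds the RNA substrate and WTAP anchors the pair in nuclear speckles. Proteins with a YTH domain bind the mark. YTHDC1 acts in the nucleus, the YTHDF proteins act in the cytoplasm, where YTHDF2 recruits deadenylases to its targets and so shortens their life, and YTHDC2 is an RNA helicase. ALKBH5 and FTO are dioxygenases that remove the methyl group. In macrophages the system is known for tuning the stability of transcripts of innate immune signalling.

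The members spanned a wide range of levels. FPKM, the length-corrected level in the deposited table, had a median over the 12 libraries of 305 for Wtap, 58.6 for Alkbh5, 36.3 for Ythdf2, 20.1 for Ythdf3 and 13.8 for Ythdc1. Lower medians were found for Mettl3 (7.69 FPKM), Ythdf1 (4.78 FPKM), Mettl14 (3.25 FPKM), Ythdc2 (2.56 FPKM) and Fto (1.70 FPKM). The length implied by the estimated count and the FPKM varied between libraries for some members, from 4701 to 13184 bases for Ythdc2 and from 1898 to 3535 for Mettl3. Wtap lay above Alkbh5 in 12 of 12 libraries without overlap of their ranges, and Ythdf2 lay above Ythdf3 in 12 of 12, with ranges that overlapped. The other neighbours in this order overlapped too: Alkbh5 exceeded Ythdf2 in 9 of 12 libraries, Ythdf3 exceeded Ythdc1 in 10, Ythdc1 exceeded Mettl3 in 9 and Mettl3 exceeded Ythdf1 in 9. Ythdf1 against Mettl14 was even (6 of 12), as was Mettl14 against Ythdc2 (6 of 12), and Ythdc2 exceeded Fto in 8.

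**Figure D1:**
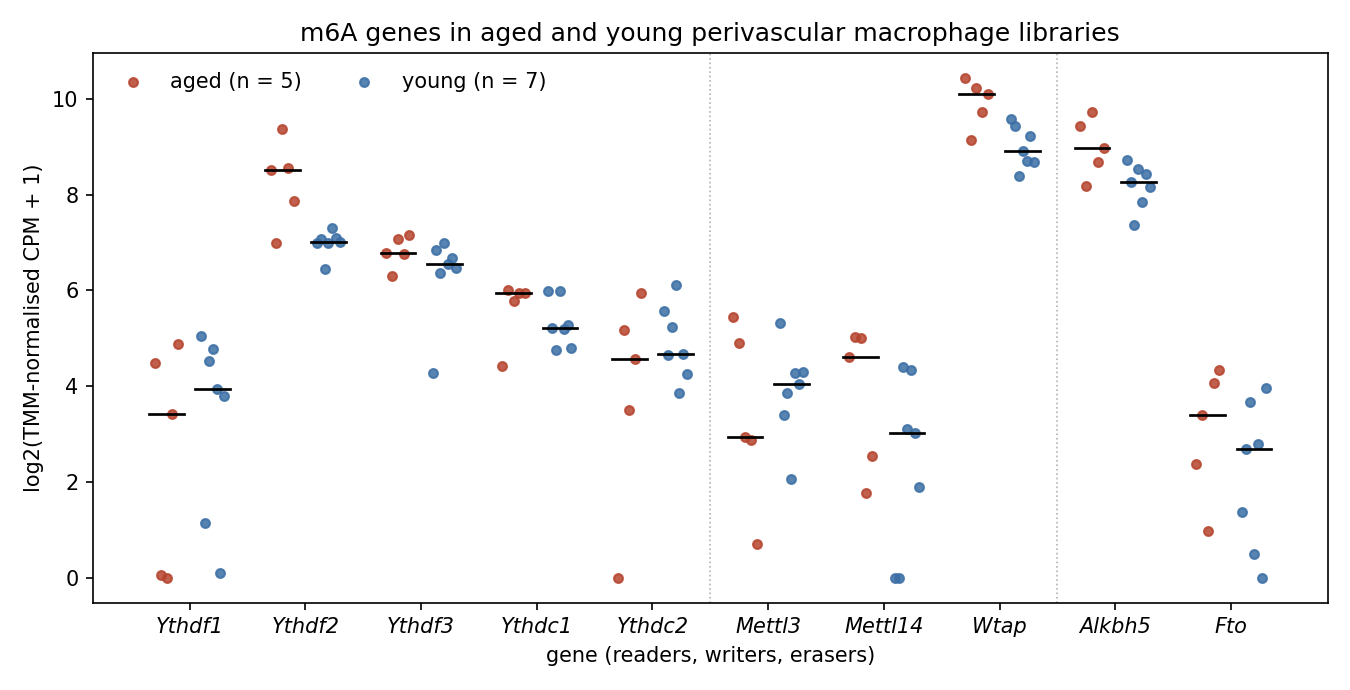
Levels of the 10 m6A genes, as log2(TMM-normalised CPM + 1) on the y axis, with 1 point per library for aged (n = 5, red) and young (n = 7, blue) libraries and a bar at the group median. Ythdf2, Wtap and Alkbh5 sit high with 4, 4 and 3 aged libraries above every young one, while Ythdf1, Mettl14, Ythdc2 and Fto each have at least 1 library at 0. Mettl14, at a lower level, has 3 aged libraries above every young one as well.

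Ythdf2, the reader that chose the group, was at 364, 127, 658, 373 and 232 normalised CPM in aged libraries 1 to 5. In young libraries the lowest, median and highest values were 86.5, 128 and 156 normalised CPM. Thus 4 aged libraries lay above every young one, and aged library 2 lay inside the young range. Across all genes tested, 2.91% had at least 4 aged libraries above the highest young one. Mean Ythdf2 was 351 ± 200 normalised CPM over the aged libraries and 127 ± 20.8 over the young ones (SD, n = 5 and n = 7), a ratio of 2.75 and a log2 fold change of 1.46 ± 0.31 (SE). The spread was wider in aged libraries, with a coefficient of variation of 0.569 against 0.163. Leaving out 1 library at a time gave log2 fold changes of Ythdf2 from 1.08, without aged library 3, to 1.68, without aged library 2. Without aged libraries 1, 3 and 4 together, the log2 fold change was 0.48.

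Ythdf2 (Entrez 213541) lies on the minus strand of chromosome 4 from 132184916 to 132212256 (RefSeq, GRCm38.p6), and no exon of another gene in the GENCODE annotation overlaps its exons. In bulk libraries one cannot tell a change in the number of cells of a type from a change in RNA per cell. Markers of choroid plexus epithelium, the cell layer that secretes cerebrospinal fluid, moved with age as well. All 5 of these markers were in the table, 3 were tested and 1 passed, and their summed level was between 200 and 1110 normalised CPM in the aged and between 59.4 and 147 in young libraries. Most of it was Ttr, the thyroxine carrier transthyretin. Kcnj13 had 5075 counts over the aged and 84 over the young libraries, Clic6 1204 and 12, and Prlr 384 and 87.0. Folr1, a folate receptor of that epithelium, was at 0 counts in 4 of 5 aged and 7 of 7 young libraries. The remaining aged library held 450 counts of Folr1. By library, the summed level of the 5 markers was 572, 1010, 358, 1110 and 200 normalised CPM in aged libraries 1 to 5. The part of these cells in the result was not tested.

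No test is given for Ythdf2. Neither of its paralogs, Ythdf3 and Ythdf1, passed the test. Ythdf3, a cytoplasmic reader thought to act together with the other YTHDF proteins, was at 109, 78.3, 133, 108 and 141 normalised CPM in aged libraries 1 to 5 and at 18.3, 92.7 and 126 (lowest, median, highest) in young ones. The groups overlapped, and the log2 fold change of 0.36 ± 0.38 (SE) did not pass (edgeR adjusted p = 0.999). Ythdf1, known for promoting translation of m6A-bearing transcripts, was present in some libraries and nearly absent in others. It was at 21.2, 0.0337, 0, 9.72 and 28.6 normalised CPM in aged libraries 1 to 5. In young libraries it ran from 0.0684 through a median of 14.4 to 32.2. Low and high values occurred at both ages, and the log2 fold change of −0.39 ± 1.52 (SE) had an error far larger than the difference (edgeR adjusted p = 0.999). The 0 in aged library 3 allows up to 0.15 normalised CPM, the value of 3 counts. Ythdf1 was at −0.16 (log2 fold change) once aged libraries 1, 3 and 4 were dropped.

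Per length, Ythdf2 supplied the largest part of YTHDF transcripts in every library. Its share of the summed FPKM of the 3 paralogs was 76.2%, 67.2%, 86.2%, 79.2% and 61.0% in aged libraries 1 to 5. In young libraries the share ranged from 48.1% to 69.0%, with a median of 59.9%. Only aged libraries 1, 3 and 4 exceeded the young range. The summed FPKM of the 3 paralogs was 105 ± 41.0 in aged and 56.9 ± 14.1 in young libraries (SD, n = 5 and n = 7). These shares contain the value that chose the group and are a description.

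**Figure D2:**
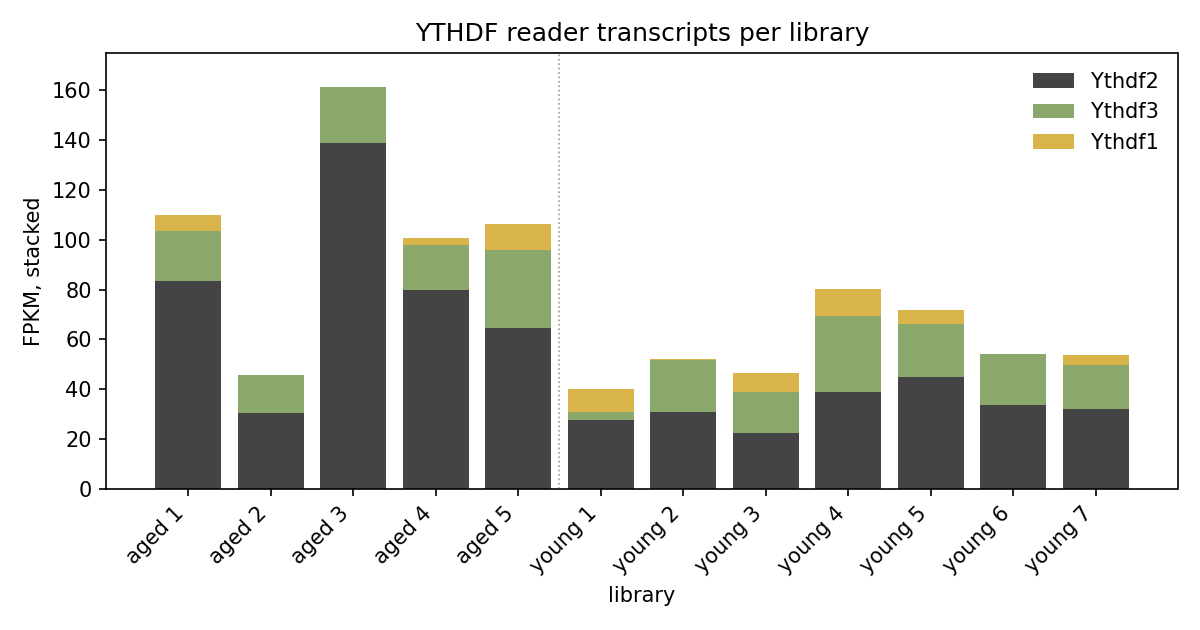
FPKM of Ythdf2 (dark), Ythdf3 (green) and Ythdf1 (yellow) stacked for each of the 5 aged and 7 young libraries. Ythdf2 makes up 61.0% to 86.2% of the column in aged and 48.1% to 69.0% in young libraries, and aged library 2 has a column (45.6 FPKM) within the young range.

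Neither YTHDC reader differed beyond the spread between libraries. Ythdc1, the nuclear reader that influences splicing and export, was at 20.4, 63.1, 53.6, 61.1 and 60.3 normalised CPM in aged libraries 1 to 5. In young libraries it was at 26.0, 36.2 and 62.5 (lowest, median, highest). Aged library 1 was the lowest of all 12, the others of the aged group lay in the upper part of the young range or just above it, and the log2 fold change was 0.33 ± 0.48 (SE; edgeR adjusted p = 0.999), or 0.59 without aged libraries 1, 3 and 4. Exons of Ythdc1 share 631 bases with a long noncoding RNA of the same strand. Ythdc2, a helicase best known for its role in meiosis, was at 0, 35.1, 10.4, 22.6 and 60.3 normalised CPM in aged and at 13.4, 24.6 and 67.7 (lowest, median, highest) in young libraries. The log2 fold change of Ythdc2 was −0.36 ± 1.02 (SE; edgeR adjusted p = 0.999), with a sign that turned without aged libraries 1, 3 and 4 (0.52). Aged library 1 thus had the lowest value of both YTHDC genes, and its 0 counts of Ythdc2 allow up to 0.121 normalised CPM.

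Among the 3 writer subunits, Wtap was by far the most abundant. It was at 1385, 561, 1194, 843 and 1106 normalised CPM in aged libraries 1 to 5 and at 336, 483 and 763 (lowest, median, highest) in young ones. Again 4 aged libraries lay above every young library and aged library 2 lay within the young range. The means were 1018 ± 322 in aged and 528 ± 159 normalised CPM in young libraries (SD, n = 5 and n = 7). The log2 fold change of 0.95 ± 0.25 (SE) did not pass (edgeR adjusted p = 0.277, and between 0.0383 and 1 over the alternatives). Wtap passed without aged library 2 (edgeR adjusted p = 0.0383). When aged libraries 1, 3 and 4 were dropped, the estimate for Wtap became 0.65. Wtap (Entrez 60532) lies on chromosome 17 from 12966799 to 12992543.

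The catalytic pair was far lower, and neither gene passed the test. Mettl3, the methyltransferase itself, was at 42.5, 29.0, 6.61, 6.32 and 0.636 normalised CPM in aged libraries 1 to 5, against 3.19, 15.5 and 38.7 (lowest, median, highest) in young ones. Values at both ends of the range occurred at both ages. The log2 fold change of 0.02 ± 1.03 (SE) lay near 0 and its sign turned under 13 of 23 alternatives, scaling with RLE factors (−0.0003) and by library totals alone (−0.07) among them, as well as without aged libraries 1, 3 and 4 (−0.15) (edgeR adjusted p = 0.999). Exons of Mettl3 share 933 bases with those of Tox4 on the opposite strand. The library chemistry does not mark the strand, so reads in those bases cannot be assigned to either gene by strand. Mettl14, its RNA-binding partner, was at 23.3, 31.7, 31.3, 2.39 and 4.82 normalised CPM in aged libraries 1 to 5 and at 0, 7.08 and 20.1 (lowest, median, highest) in young ones. The 3 highest libraries were aged libraries 1, 2 and 3, and young libraries 1 and 2 had 0 counts, which allows up to 0.111 and 0.107 normalised CPM. The log2 fold change of Mettl14 was 1.21 ± 1.46 (SE; edgeR adjusted p = 0.999). METTL3 and METTL14 act as a heterodimer. Their transcripts had a Pearson r of 0.085 and a Spearman rho of 0.175 over the 12 libraries, given as a description.

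Of the erasers, Alkbh5 was abundant and Fto was not. Alkbh5, a nuclear demethylase, was at 692, 290.0, 851, 412 and 503 normalised CPM in aged libraries 1 to 5 and at 164, 308 and 419 (lowest, median, highest) in young ones. Here 3 aged libraries exceeded the highest young one, and libraries 2 and 4 of the aged group lay within the young range. Mean Alkbh5 was 550 ± 223 normalised CPM across aged libraries and 302 ± 86.2 across young ones (SD, n = 5 and n = 7). The log2 fold change of 0.86 ± 0.28 (SE) did not pass (edgeR adjusted p = 0.409, and between 0.102 and 1 over the alternatives), and it was 0.38 without aged libraries 1, 3 and 4. Alkbh5 (Entrez 268420) lies on chromosome 11 from 60537683 to 60558512. Fto, a demethylase first known for its link to body mass, was at 4.18, 9.55, 0.951, 15.8 and 19.1 normalised CPM in aged libraries 1 to 5 and at 0, 5.39 and 14.5 (lowest, median, highest) in young ones. The Fto groups overlapped over most of their range, with a log2 fold change of 0.81 ± 1.43 (SE; edgeR adjusted p = 0.999), or 1.33 without aged libraries 1, 3 and 4. Exons of Fto share 144 and 304 bases with a pair of genes on the opposite strand.

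Ythdf2 is left out of the counts of calls, since its difference chose the group. With all 12 libraries, 0 of the other 9 members passed an adjusted p of 0.05 by edgeR's quasi-likelihood test, against 0.0105% of all genes tested (1 gene, Ttr). At an unadjusted p under 0.05 there were 2 of these 9 (Wtap and Alkbh5), against 5.97% of genes tested. DESeq2 called 1 of the 9, Wtap, on all genes with counts, where it called 2.28% of genes (0.84% as higher). These shares are of all genes with counts, including genes to which DESeq2 gave no adjusted p. DESeq2 also called Wtap on the genes kept by the filter, with 1.27% of genes called (0.67% as higher). The bias-adjusted mode of edgeR called 0 of the 9 and 0.398% of genes (0.377% as higher), and limma on voom weights and on log2 FPKM called 0. Without aged library 2, edgeR called Wtap, with 0.755% of genes (0.614% as higher). No member had groups without overlap, against 0.325% of genes with every aged library higher and 0.272% with every aged library lower. Of the 9 log2 fold changes 7 were positive, with a median of 0.36, against 49.5% positive and a median of −0.01 over all genes tested. The contrast is the one that chose the group, so nothing is read from these counts.

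**Figure D3:**
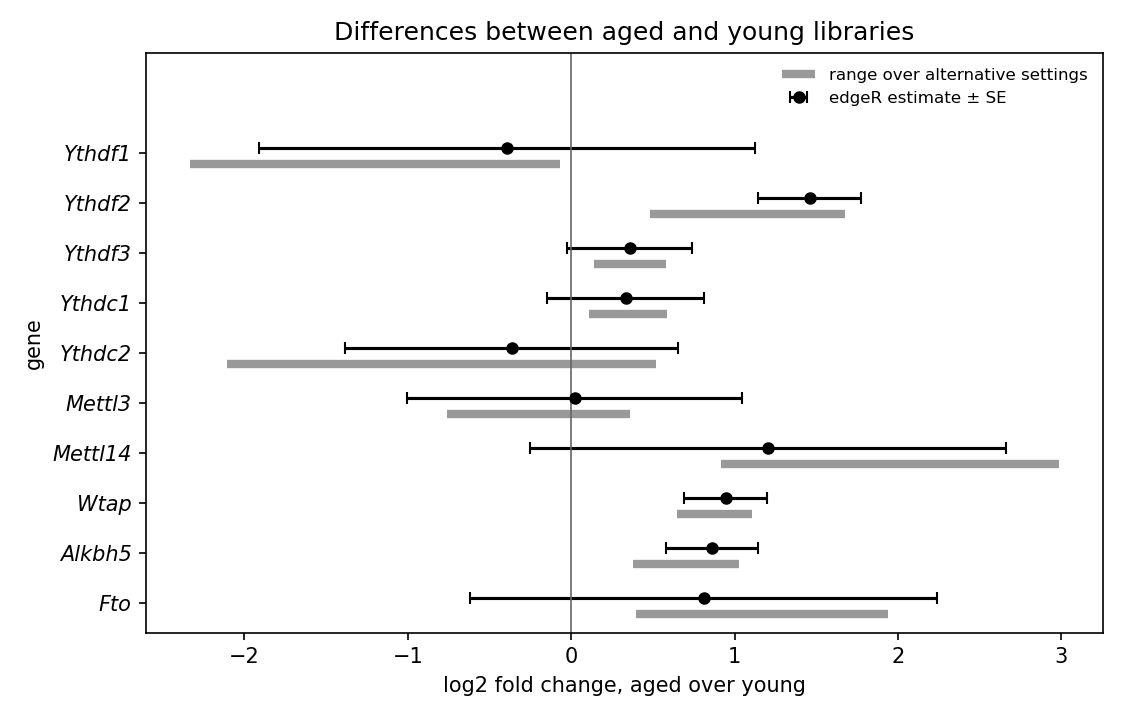
Log2 fold change, aged over young, of each m6A gene on the x axis (black point, edgeR estimate, bar ± SE) with the range over the 23 alternative settings (grey). Ythdf2 (1.46), Wtap (0.95) and Alkbh5 (0.86) have the smallest errors. They stay above 0 in each of the alternatives, as do Ythdf3, Ythdc1, Mettl14 and Fto. Ythdf1 stays below 0 in each, whereas Mettl3 and Ythdc2 cross 0.

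The 3 abundant members varied together across libraries. Alkbh5 and Wtap had a Pearson r of 0.923 and a Spearman rho of 0.93 on log2(CPM + 1) over the 12 libraries. After the group means were removed r was 0.866, and among the 7 young libraries alone it was 0.817. Without the libraries farthest from the median of Wtap, aged library 1 and young library 3, r was 0.871. Ythdf2 had r = 0.847 with Alkbh5 (rho = 0.587) and r = 0.814 with Wtap (rho = 0.706). With the group means removed these were 0.72 and 0.582, and among the young libraries 0.516 and 0.429. Such values were not limited to the abundant members. Ythdc1 and Ythdc2 had r = 0.653 (rho = 0.58), 0.825 with the group means removed and 0.668 among the young libraries. Without aged library 1 and young library 3 their r was 0.564. These pairs were picked after their values were seen and share the library, its depth and its scaling factor, so no test is given. Of 4825 genes with a mean of at least 20 normalised CPM, 73 had a higher r with Ythdf2 than Alkbh5 had, and 111 a higher one than Wtap.

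**Figure D4:**
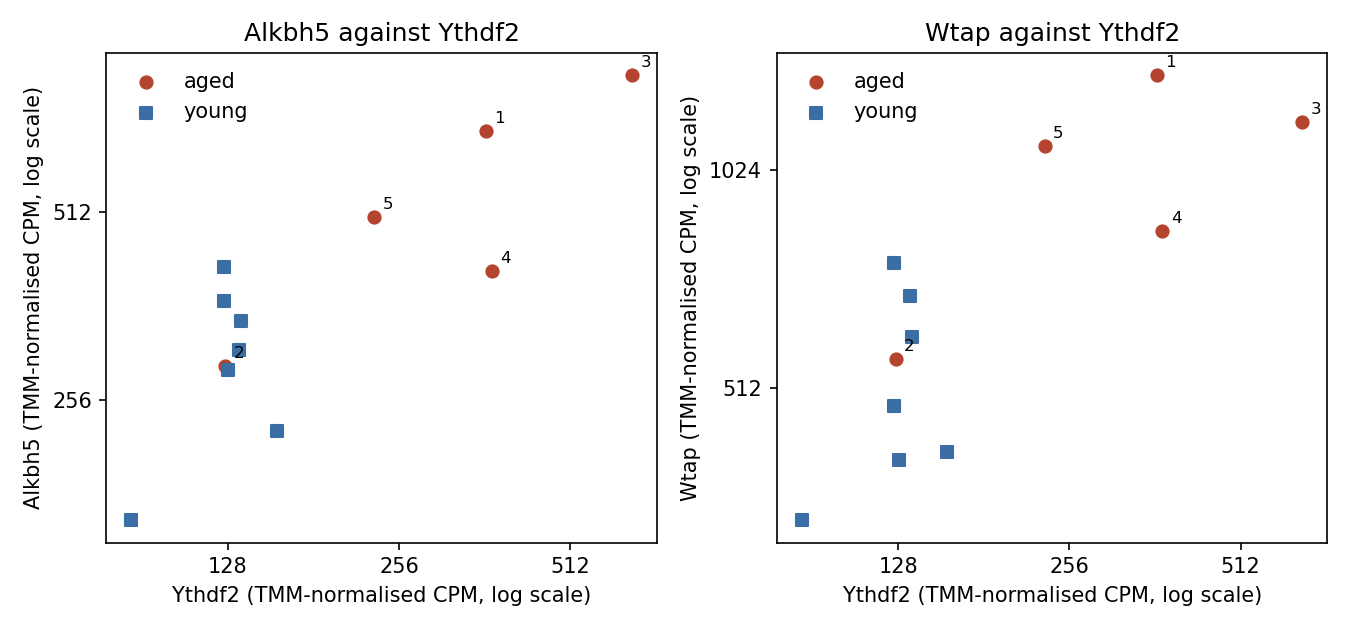
Alkbh5 (left) and Wtap (right) against Ythdf2, both axes in normalised CPM on log scales, with 1 point per library (aged as red circles with their library number, young as blue squares). Aged libraries 1, 3, 4 and 5 lie to the right of every young library, and aged library 2 lies among the young ones.

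The starts of these 3 genes are shown because they varied together. RefSeq promoter windows (GRCm38.p6, 250 bases before to 50 after the start, gene strand) were matched by symbol for 7 of the 10 members, and for Wtap the first of 3 listed starts is shown. Capitals mark the GC box GGGCGG, a sequence bound by SP and KLF factors, on either strand.
Ythdf2, chr4:132212207-132212506, minus strand: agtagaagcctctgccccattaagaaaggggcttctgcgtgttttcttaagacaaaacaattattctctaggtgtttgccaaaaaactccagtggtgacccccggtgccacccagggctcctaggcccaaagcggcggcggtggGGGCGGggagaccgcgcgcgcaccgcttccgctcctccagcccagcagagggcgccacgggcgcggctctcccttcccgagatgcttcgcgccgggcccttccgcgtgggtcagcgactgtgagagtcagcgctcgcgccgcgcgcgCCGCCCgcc
Alkbh5, chr11:60537433-60537732, plus strand: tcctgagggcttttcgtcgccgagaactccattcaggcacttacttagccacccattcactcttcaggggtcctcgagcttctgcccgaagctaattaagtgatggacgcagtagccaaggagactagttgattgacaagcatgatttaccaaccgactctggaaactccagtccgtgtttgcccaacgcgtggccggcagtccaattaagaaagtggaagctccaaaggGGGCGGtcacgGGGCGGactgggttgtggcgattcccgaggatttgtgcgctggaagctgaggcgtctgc
Wtap, chr17:12992494-12992793, minus strand: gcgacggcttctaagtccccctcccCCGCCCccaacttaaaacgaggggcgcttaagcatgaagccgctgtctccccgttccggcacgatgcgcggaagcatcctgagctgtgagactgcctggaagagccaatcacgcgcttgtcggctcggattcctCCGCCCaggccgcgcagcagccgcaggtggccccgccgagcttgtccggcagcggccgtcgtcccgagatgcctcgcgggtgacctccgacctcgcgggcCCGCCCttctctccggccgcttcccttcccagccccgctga
The window of Ythdf2 held 2 GC boxes, that of Alkbh5 2 and that of Wtap 3, and 35.7% of 32851 promoter windows of the same length held at least 1. The pentamer CCAAT, the box bound by NF-Y, was found in the windows shown for Alkbh5 and Wtap but not in that of Ythdf2 (37.4% of all windows). TGANTCA (AP-1, 7.81% of windows), CACGTG (E-box, 7.15%) and TGACG (CRE half-site, 20.8%) were not found in any of the 3 windows shown. Each motif was searched on both strands and counted whether or not it overlapped another. CpG pairs numbered 32 in Ythdf2, 18 in Alkbh5 and 35 in Wtap, against a median of 7 over all windows. The starts listed for Wtap differed. The window chr17:12992210-12992509 held 0 CCAAT, 5 GC boxes and 48 CpG pairs, and chr17:12992490-12992789 held 1, 3 and 34. The GC box count was 5 in Ythdc1, 3 in Ythdf1 and 0 in Fto and Mettl3, and CpG pairs numbered 35, 37, 23 and 17 in these 4. These matches describe letters in a window and do not show binding.

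The 5 genes whose profile over the 12 libraries was closest to that of Ythdf2 were Ubap1l (r = 0.954), Sephs2 (r = 0.953), Fli1 (r = 0.946), Birc6 (r = 0.945) and Atp5mpl (r = 0.945). Sephs2 makes selenophosphate for selenoproteins, Fli1 is an ETS transcription factor, and Birc6 is a ubiquitin-conjugating inhibitor of apoptosis. They were picked for likeness over the same libraries, so their higher level in aged libraries is part of the choice and is given as a description. Sephs2 was at 311 ± 187 in aged and 75.6 ± 12.9 normalised CPM in young libraries (SD, n = 5 and n = 7). Fli1 was at 820 ± 506 in aged and 271 ± 60.3 normalised CPM in young libraries, and Birc6 at 552 ± 254 and 231 ± 48.5 (SD, n = 5 and n = 7). With the group means removed the 5 correlations were between 0.878 and 0.91.

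All 5 accessory subunits of the writer complex were tested, and 0 passed. Each had a positive log2 fold change (median 1.11), against 49.5% positive and a median of −0.01 over all genes tested. When aged libraries 1, 3 and 4 were dropped, 4 of the 5 were positive and the median was 0.65. Rbm15, an adaptor that brings the complex to its RNA targets, was at 180, 74.7, 248, 256 and 158 normalised CPM in aged libraries 1 to 5. In young libraries it was at 41.7, 80.1 and 132 (lowest, median, highest). As for Ythdf2 and Wtap, all aged libraries but library 2 exceeded the young range (log2 fold change 1.11 ± 0.34 SE, edgeR adjusted p = 0.367). Its estimate was 0.44 when aged libraries 1, 3 and 4 were dropped. Cbll1, the ubiquitin ligase Hakai that stabilises the complex, was at 60.0 ± 55.2 in aged and 19.4 ± 18.6 normalised CPM in young libraries (edgeR adjusted p = 0.999), with a log2 fold change of 1.62 that was 0.65 without those 3 libraries. Virma, the scaffold of the complex, was at 14.3 ± 28.0 in aged and 7.75 ± 7.96 normalised CPM in young libraries, an aged mean set by aged library 1 (64.0). Its log2 fold change of 0.89 turned sign under 5 of 23 alternatives and was −2.06 without aged library 1 and −1.10 without aged libraries 1, 3 and 4. Zc3h13 was at 9.66 ± 9.12 and 4.96 ± 8.23, and Rbm15b, the paralog of Rbm15, at 5.53 ± 7.32 and 1.09 ± 1.24 normalised CPM in aged and young libraries. For Zc3h13 the log2 fold change was 0.96 ± 1.72 (SE), or 1.74 without those 3 libraries. For Rbm15b it was 2.34 ± 1.75 (SE). The SE was 1.145 for Cbll1 and 1.77 for Virma, so the errors of Virma and Zc3h13 exceeded their estimates.

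Across the 9 lists of other m6A pathway genes, 71 names were listed, 69 were in the table and 61 were tested. With edgeR 0 passed in either direction and 9 had an unadjusted p under 0.05 (5.97% of all genes did), with 32 positive and 29 negative log2 fold changes (median 0.08). There were 31 positive and 30 negative values (median 0.01) without aged libraries 1, 3 and 4. DESeq2 called 3 on all genes with counts, where it called 2.28% of genes, counting those given no adjusted p. It called 2 on the genes kept by the filter, where it called 1.27%, and both limma fits called 0. At least 4 aged libraries exceeded the young range for 6 of the 61 (Rbm15, Hnrnpa2b1, Tob1, Rpp38, Alkbh8 and Spred2), against 2.91% of all genes.

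In the list of other RNA adenine methyltransferases and cofactors, 3 of 6 tested genes were positive and 0 passed. Trmt112, a cofactor of several methyltransferases, was at 163 ± 64.0 in aged and 208 ± 62.0 normalised CPM in young libraries. Mettl16, which methylates the transcript of Mat2a and a spliceosomal RNA, was at 128 ± 70.3 and 66.7 ± 32.0 (log2 fold change 0.94 ± 0.43 SE, edgeR adjusted p = 0.789). The sign for Mettl16 turned (−0.24) without aged libraries 1, 3 and 4, when 2 of the 6 were positive. For the supply of the methyl donor S-adenosylmethionine, 3 of 5 were positive and 0 passed. Mat2a, the synthetase subunit, was at 282 ± 126 in aged and 202 ± 104 normalised CPM in young libraries, and its regulatory partner Mat2b at 144 ± 70.4 and 137 ± 30.9. The log2 fold change was 0.48 for Mat2a (0.21 without those 3 libraries) and 0.08 for Mat2b (0.49 without them, with a sign that turned under 8 of 23 alternatives). Without them 2 of the 5 were positive.

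Other RNA-binding proteins linked to m6A gave 4 positive values among 6 tested genes, and 0 passed. Hnrnpa2b1, a nuclear protein of RNA processing, was at 698 ± 317 in aged and 426 ± 73.6 normalised CPM in young libraries, with 4 aged libraries above the young range (log2 fold change 0.71 ± 0.25 SE, edgeR adjusted p = 0.481). Hnrnpc was at 167 ± 89.0 and 147 ± 42.3. With aged libraries 1, 3 and 4 dropped, Hnrnpa2b1 had a log2 fold change of 0.23, Hnrnpc one of −0.84 in place of 0.19, and 3 of the 6 were positive. The m6A-binding Igf2bp1, Igf2bp2 and Igf2bp3, known from embryonic tissues, were too low to be tested, with means of at most 0.675 normalised CPM in either group. Among partners of YTHDC1 and YTHDC2, 3 of 4 tested genes were positive and 0 passed. Srsf3, a splicing factor that YTHDC1 recruits, was at 434 ± 169 in aged and 320 ± 63.4 normalised CPM in young libraries, and Srsf10 at 165 ± 79.0 and 112 ± 45.9. Their log2 fold changes were 0.44 for Srsf3 (0.05 without aged libraries 1, 3 and 4) and 0.56 for Srsf10 (0.29 without them).

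The machinery that YTHDF2 recruits gave values of both signs. Of 13 tested genes of the CCR4-NOT deadenylase and its bridging proteins, 5 were positive and 8 negative (median −0.44), and 0 passed. With aged libraries 1, 3 and 4 dropped, 7 were positive and 6 negative (median 0.01). Tob1, an adaptor between deadenylase and poly(A)-binding protein, was at 237 ± 130 in aged and 91.9 ± 30.7 normalised CPM in young libraries. Its log2 fold change of 1.37 ± 0.42 (SE) did not pass with all libraries (edgeR adjusted p = 0.352) but did without aged library 2 (edgeR adjusted p = 0.0202), and it was 0.83 without aged libraries 1, 3 and 4. Cnot9, a core subunit, was at 107 ± 45.8 and 77.2 ± 35.0, with a log2 fold change of 0.47 that was 0.10 without those 3 libraries. Of 8 tested genes for other decay partners and RNase P/MRP, 3 were positive and 0 passed, with Rpp30 at 134 ± 86.4 in aged and 84.7 ± 45.4 normalised CPM in young libraries. Rpp30 had a log2 fold change of 0.66, which turned to −0.77 without those 3 libraries, when 4 of the 8 were positive. Rpp38, another protein of that ribonuclease, was at 151 ± 75.0 and 69.7 ± 31.9 (edgeR adjusted p = 0.593).

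Transcripts reported elsewhere as regulated through m6A in macrophages gave 4 positive and 4 negative values among 8 tested genes. Spred2, an inhibitor of Ras and MAP kinase signalling, was at 327 ± 136 in aged and 146 ± 23.8 normalised CPM in young libraries, with 4 aged libraries above the young range. Its log2 fold change was 1.17 ± 0.29 (SE), which did not pass with all libraries (edgeR adjusted p = 0.197) but did without aged library 2 (edgeR adjusted p = 0.00765), and it was 0.40 without aged libraries 1, 3 and 4. DESeq2 called Spred2 as higher with all libraries (DESeq2 adjusted p = 0.0112, and 0.03 on the genes kept by the filter). Neither limma fit called it.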

How the data were processed

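RNA sequencing libraries of 5 aged and 7 young samples were compared. The authors deposited estimated counts per gene and normalised values with no named unit. These deposited values were read as FPKM, since dividing the estimated count by the library total and by the value gives a plausible transcript length, which for some genes differs between libraries. Per the submitters' processing notes, DESeq2 1.4.5, RSEM 1.2.12, HISAT2 2.0.4 and Bowtie2 2.2.5 were used with GRCm38, without role or order. No annotation is named there. All estimated counts were rounded for testing (88.2% to 90.6% per library were already whole). Amplified cDNA without molecular identifiers was counted, so a floor of 3 counts (0.0937 to 0.15 normalised CPM) allows for counting error alone. Every pair of libraries differed by more than sampling noise, with a chi-square of 294.6 to 851.5 per degree of freedom. No columns of other samples were present.

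Aged and young libraries were compared with edgeR 4.0.16 in R 4.3.3, by the quasi-likelihood test with TMM factors, filterByExpr, robust estimation and legacy=TRUE. P-values were adjusted (Benjamini-Hochberg) over 9550 genes, and an adjusted p under 0.05 was the threshold. The common biological coefficient of variation was 1.33. Standard errors were derived from the F statistic. Levels were given in TMM-normalised CPM with the SD. DESeq2 1.42.0 and limma 3.58.1, other scaling factors, no filter, legacy=FALSE, a transcript length offset, a replicate block and left-out libraries were alternatives. The replicate block was fitted without young libraries 6 and 7. The fitting script was tested on simulated counts, with recovery of set differences required only at a spread far smaller than in these data. That test does not show recovery at the spread seen here. The members, lists and rules were chosen with earlier results of these data known. Named were all members and accessory subunits, the 2 most abundant tested genes of each other list, any gene past the threshold, and the 5 genes most like Ythdf2; Alkbh8, Rpp40, Igf2bp1 to Igf2bp3 and cell type markers were named outside it. A gene that the rule names is not reported here. Symbols damaged in the table (24) were restored through Entrez identifiers.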

Additional observations from a re-analysis of the deposited data

Results flagged for a closer look

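In 30 groups of libraries (10 members and 5 accessory subunits at 2 ages) 4 single libraries lay far from the rest of their group by Dixon's criterion, which flags about 1 in 20 groups by chance. Virma was at 64.0 normalised CPM in aged library 1, against 7.36 in the next highest aged library. Ythdc1 was at 20.4 normalised CPM in aged library 1, against 53.6 in the next lowest. Ythdf3 was at 18.3 normalised CPM in young library 1, against 81.7 in the next lowest young library. Zc3h13 was at 22.7 normalised CPM in young library 4, against 7.40 in the next highest.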

How the results depend on the processing

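The number of genes past the threshold was 1 with all 12 libraries. It was 3 with library totals alone, 13 without a filter on low counts, 38 with edgeR legacy=FALSE, 2 with voom weights, 6 on log2(FPKM + 1), 393 with DESeq2 and 121 with DESeq2 on the genes kept by the filter, a setting chosen after seeing the data. It was 0 with the replicate block and 0 without aged libraries 1, 3 and 4, and between 0 and 75 with single libraries left out, the 75 without aged library 2. Pathway genes past the threshold numbered 3 with DESeq2, 2 with DESeq2 on the kept genes and 0 to 2 with single libraries left out, against 0 in the fit of all libraries. Dropping aged libraries 1, 3 and 4 gave Ythdf2 a log2 fold change of 0.48 instead of 1.46, and the range was 1.08 to 1.68 with single libraries left out. Wtap was called by DESeq2 (adjusted p = 0.0445, and 0.0498 on the kept genes) and by edgeR without aged library 2 (adjusted p = 0.0383). The sign of Mettl3 turned with RLE factors (−0.0003), library totals alone (−0.0706), DESeq2 (−0.0009, and −0.0003 on the kept genes), voom weights (−0.76), log2(FPKM + 1) (−0.46), the replicate block (−0.32) and without aged libraries 1, 3 and 4 (−0.15). It also turned with single libraries left out, between −0.65 and 0.36. The sign of Ythdc2 turned without aged libraries 1, 3 and 4 (0.52). The causes were not tested. Scaling by library totals alone moved the median of all genes by −0.13 on the log2 scale, log2(FPKM + 1) by −0.175 and the replicate block by −0.143. Same-numbered libraries showed little shared deviation from their group means (correlations from −0.041 to 0.094). No label says that the numbers pair libraries, and these correlations alone cannot settle it. Under the replicate block the log2 fold change of Ythdf2 was 1.29. That setting also left out young libraries 6 and 7, which have no aged library of the same number.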

Other observations

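Other dioxygenases of the AlkB family, relatives of Alkbh5 and Fto that act on other modified bases, gave 2 positive and 4 negative log2 fold changes among 6 tested genes, and 0 passed. Alkbh1 was at 31.0 ± 28.2 in aged and 42.8 ± 25.3 normalised CPM in young libraries, and Alkbh3, a demethylase of alkylated bases, at 22.9 ± 30.0 and 44.4 ± 38.4 (SD, n = 5 and n = 7). With aged libraries 1, 3 and 4 dropped, Alkbh1 had a log2 fold change of 0.36 in place of −0.46, and Alkbh3 one of −3.03 in place of −0.96. Alkbh8, a tRNA modification enzyme named after its values were seen, was at 28.5 ± 33.4 in aged and 2.72 ± 1.37 normalised CPM in young libraries, with 4 aged libraries above the young range (log2 fold change 3.39 ± 1.10 SE, edgeR adjusted p = 0.414), and a log2 fold change of 2.0048 without those 3 libraries. DESeq2 called Alkbh8 as higher (adjusted p = 0.00148). Rpp40, also named after its values were seen, was at 0.00675 ± 0.0151 in aged and 11.97 ± 11.88 normalised CPM in young libraries. DESeq2 called it lower (adjusted p = 2.25e-04), and it was below the filter of the edgeR fit. Without that filter edgeR did not call Rpp40 (edgeR adjusted p = 0.19). Counts of Rpp40 were 0 in 4 of 5 aged and in 2 of 7 young libraries.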
